A study of Homo sapiens with 4 samples.

Results

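NEB, FSCN2 and 4 genes related to them by family or by position were followed through RNA sequencing of SH-SY5Y cells, a human neuroblastoma line. The 6 genes were taken by symbol from the deposited gene tables, which list 58243 genes. NEB and FSCN2 were selected on their counts in this same comparison, nearly silent in control and higher in SNP, so their difference is given here as a description and carries no test. The other 4 were chosen for what they are: NEBL is a relative of NEB, TTN encodes the other giant protein of the sarcomere, RIF1 is the gene that overlaps NEB, and FSCN1 is a relative of FSCN2. Of the 6 genes, 5 had enough reads for the fit over all genes, and NEB and FSCN2 passed its filter on low counts through the SNP libraries alone.

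The study sequenced 2 libraries of untreated SH-SY5Y cells (control a and b) and 2 of cells given SNP, sodium nitroprusside, a donor of nitric oxide (SNP a and b). Per the labels, the cells came from ATCC, were grown in DMEM with 10% serum, were left to settle for 24 h and were treated for 8 h. A range of SNP doses is described and the dose of the sequenced cells is not given; the treatment text speaks of cells differentiated with retinoic acid, which the growth text does not mention. The labels call RNA of the SNP group oxidized. They do not say whether the libraries of a group came from separate cultures, so p-values measure the spread between these libraries, which may be technical.

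Nebulin, the product of NEB, runs along the thin actin filament of skeletal muscle from the Z disc, and its repeated modules bind actin. Nebulette, from NEBL, is a shorter protein of the same family at the Z disc of heart muscle, and titin spans the sarcomere from the Z disc to its midline. Fascins tie actin filaments into tight parallel bundles: FSCN1 is the form of filopodia in neurons and other migrating cells, FSCN2 that of photoreceptors and of the stereocilia of hair cells, and FSCN3 that of the testis. RIF1 works in another pathway, at broken DNA and in the timing of replication.

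The bases just upstream of NEB and FSCN2 are shown because both genes were near silence in control and higher in SNP, to set out what their start regions hold. Both are RefSeq sequence of GRCh38.p14, the 250 bases before the annotated start, written 5′ to 3′ on the gene's strand; RefSeq's table held such a sequence for 5 of the 6 genes. Capitals mark E boxes (CANNTG, bound by basic helix-loop-helix factors) and CCAAT boxes (CCAAT) for NEB, at chr2:151734477-151734726 on the minus strand, and GC boxes (GGGCGG) for FSCN2, at chr17:81528127-81528376 on the plus strand, each searched on both strands.
NEB: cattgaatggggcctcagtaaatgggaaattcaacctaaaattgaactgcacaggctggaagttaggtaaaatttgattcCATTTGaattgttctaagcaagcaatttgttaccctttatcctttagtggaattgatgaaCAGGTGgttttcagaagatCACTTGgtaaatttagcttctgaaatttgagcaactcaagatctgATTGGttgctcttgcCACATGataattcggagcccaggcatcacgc
FSCN2: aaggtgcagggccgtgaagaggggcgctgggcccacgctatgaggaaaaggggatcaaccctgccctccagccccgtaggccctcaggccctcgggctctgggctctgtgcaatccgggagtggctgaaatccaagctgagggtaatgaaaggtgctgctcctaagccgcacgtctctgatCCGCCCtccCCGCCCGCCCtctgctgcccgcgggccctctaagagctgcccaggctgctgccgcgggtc

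The start regions differ in composition. That of NEB is 39.2% G and C with 2 CpG dinucleotides, and that of FSCN2 is 67.2% G and C with 15, against medians of 58.0% and 11 over 35116 promoters of the table. NEB's window holds 4 E boxes, starting 170, 110, 91 and 31 bases before the start, and 1 CCAAT box starting 46 bases before it. An E box occurs in 61.8% of all promoters of this length and 4 or more in 3.35%; a CCAAT box occurs in 32.0%. FSCN2's window holds 3 GC boxes, starting 69, 60 and 56 bases before the start, the last 2 of which overlap; a GC box occurs in 42.6% of promoters and 3 or more in 13.9%. None of the motifs found in NEB's window occurs in FSCN2's, or the reverse. The letters of a TATA box (TATAAA, in 10.7% of promoters), a CRX and OTX2 site (TAATCC, 5.62%), an AP-1 site (TGANTCA, 6.57%), an antioxidant response element (TGACNNNGC, 10.9%), a MEF2 site (0.515%) and a p53 site (a single decamer, 5.57%) occur in neither window. A match is a string of letters and not a measured binding site.

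NEB counts were 2 in control a and 3 in control b, against 96 in SNP a and 76 in SNP b. The gene, ENSG00000183091, lies on chromosome 2 at 151485336 to 151734487 of GRCh38, minus strand, and its transcripts cover 30567 bases in 182 merged exons (GENCODE 29). In CPM (counts scaled to the library total and edgeR's TMM factor) its level was 0.420 ± 0.158 (SD, n = 2) in control and 10.9 ± 1.57 (SD, n = 2) in SNP. Both SNP libraries lay far above both controls. In bulk RNA, more cells with a transcript and more transcript per cell cannot be told apart. The summed counts, 5 against 172, give a ratio of 26.6 with a 95% exact binomial interval of 11.2 to 83.0, which covers counting error only. The gene was selected on these counts, so the interval is no test of a difference. The fitted log2 fold change was 4.67, the 10th highest of 14759 genes tested; with so few control counts it depends on the small prior count that the fit adds.

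FSCN2 counts were 4 in control a and 2 in control b, against 69 in SNP a and 95 in SNP b. It is ENSG00000186765, on chromosome 17 at 81528396 to 81537130, plus strand, with 2019 exon bases in 4 exons. Its level was 0.485 ± 0.185 CPM (SD, n = 2) in control and 10.5 ± 2.56 CPM (SD, n = 2) in SNP, again with no overlap. The ratio of the summed counts, 6 against 164, was 21.1 (9.51 to 58.5, counting error only and no test, as for NEB). The fitted log2 fold change of 4.36 stood 11th from the top. NEB was the higher of the pair in SNP a and FSCN2 in SNP b. The 95% Poisson intervals of the SNP libraries, however, met within each gene: 9.76 to 14.7 and 7.74 to 12.3 CPM for NEB, 6.74 to 10.96 and 9.94 to 15.01 CPM for FSCN2.

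Counts of 5 or fewer in both controls and 50 or more in both SNP libraries, thresholds set after the values were seen, were found for 5 genes of all listed: NEB, FSCN2, AMZ1, DNAH17 and KCNMB2-AS1. The reverse pattern was found for 0. These are raw counts, and the SNP libraries were deeper, which made the reverse harder to meet. SNP a and b held 8056550 and 7648309 counts, and control a and b 6538701 and 5613144. Counts of 5 or fewer in both controls were found for 42382 of all listed genes. Just outside these thresholds, 26 further genes had the same low control counts and a lower SNP count of 20 to 49. Per base of transcript the levels of NEB and FSCN2 differ. In TPM, the authors' measure per transcript length, NEB was at 0.0470, 0.0828, 1.97 and 1.69 in control a, control b, SNP a and SNP b, and FSCN2, whose transcripts are much shorter, at 1.42, 0.835, 21.5 and 31.9.

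**Figure D1:**
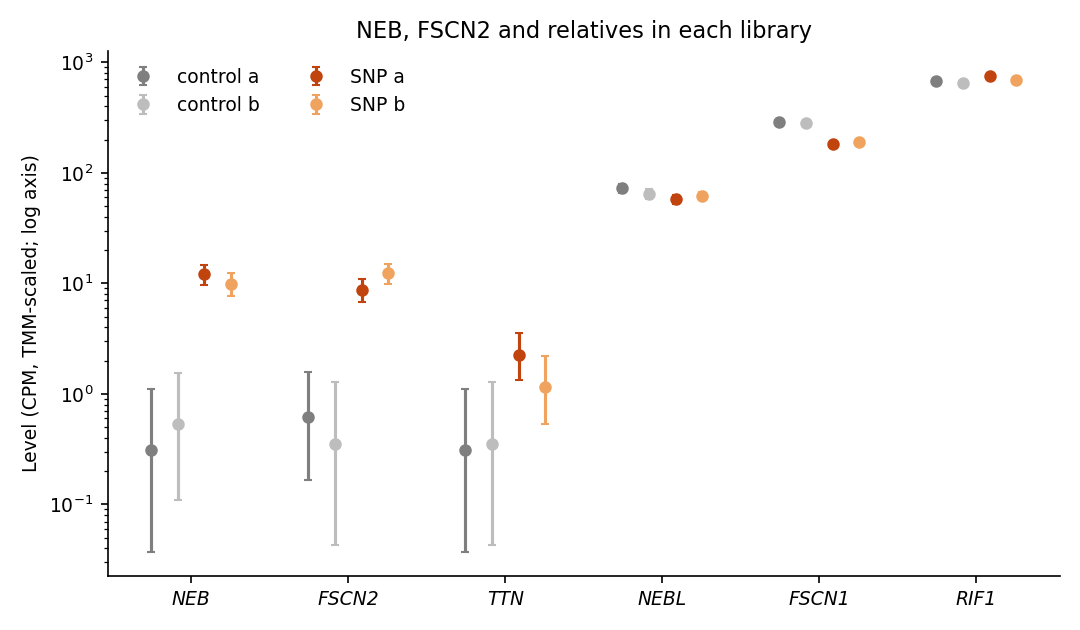
Level of each of the 6 genes in the 4 libraries, in CPM on a log axis; points are libraries and bars are 95% Poisson intervals, which cover counting error only. NEB and FSCN2 lie below 1 CPM in both controls and near 10 CPM in both SNP libraries. RIF1 and NEBL stay within narrow ranges, and FSCN1 is lower in both SNP libraries than in both controls.

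TTN stayed close to the limit of detection. Its counts were 2 and 2 in control a and b and 18 and 9 in SNP a and b, on a gene of 118976 exon bases (ENSG00000155657, chromosome 2 at 178525989 to 178830802, minus strand, 368 merged exons). The ratio of the summed counts, 4 against 27, was 5.22 (1.82 to 20.5). SNP b, with 9 counts, has a Poisson interval that meets those of both controls, and the gene had too few counts for the fit. In TPM, which allows for its length, TTN was at 0.0121, 0.0142, 0.0951 and 0.0513, lower than NEB in each library. TTN-AS1, an antisense gene sharing 11381 exon bases with TTN, had 966, 875, 889 and 974 counts. Its log2 fold change was -0.35 (edgeR adjusted p = 0.0171), a call lost without control a, control b or SNP a (highest adjusted p 0.156). PLEKHA3, 9526 bases from TTN, had 500, 480, 767 and 762 counts and was not called (0.27, edgeR adjusted p = 0.0815), and CCDC141, which shares 138 exon bases with it, had 0, 1, 3 and 1 counts.

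NEBL, the relative of NEB, did not pass the test, though it did when fold changes were adjusted for length and GC content (-0.34, edgeR adjusted p = 0.0231) and for G minus C as well (-0.44, edgeR adjusted p = 0.0090). It had 469, 367, 458 and 478 counts in control a, control b, SNP a and SNP b (ENSG00000078114, chromosome 10 at 20779973 to 21174187, minus strand, 34 merged exons). In CPM these are 72.2, 65.0, 57.5 and 61.8, so both SNP libraries lie below both controls, a separation that 64.0% of all tested genes showed in either direction. The log2 fold change was -0.20 with an SE of 0.121 (edgeR quasi-likelihood test, adjusted p = 0.235). NEBL-AS1, which shares 94 exon bases with it, had 0, 0, 0 and 1 counts. LASP1, a small actin-binding member of the nebulin family, had 433, 416, 456 and 528 counts and a log2 fold change of -0.16 (edgeR adjusted p = 0.379). NRAP, the muscle-specific member, had 0, 0, 0 and 1 counts.

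RIF1 did not pass the test either, although it is the gene that overlaps NEB. Its counts were 4425, 3667, 6009 and 5331, or 681, 649, 754 and 689 CPM (ENSG00000080345, chromosome 2 at 151409883 to 151508013, plus strand, 45 merged exons). The groups do not overlap, and the distance between control a and SNP b is small. The log2 fold change was 0.12 with an SE of 0.0879 (edgeR adjusted p = 0.347). Its sign turned to -0.032 when fold changes were adjusted for transcript length and GC content, with no call under either fit.

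FSCN1 fell. Control a and b held 1893 and 1596 of its reads, SNP a and b 1442 and 1464 (ENSG00000075618, chromosome 7 at 5592823 to 5606655, plus strand, 7 merged exons). The level was 287 ± 6.06 CPM (SD, n = 2) in control and 185 ± 5.82 CPM (SD, n = 2) in SNP, with no overlap. The log2 fold change was -0.63 with an SE of 0.0952 (edgeR adjusted p = 5.8e-05), lower in 2 of 2 SNP libraries. FSCN1 was thus the 1 call among the 3 relatives tested without these adjustments. Over all 14759 genes, 26.2% were called, 13.6% higher and 12.6% lower. Of its transcript bases, G is less frequent than C by 3.72 percentage points, a difference lower than in all but 6.53% of tested genes; with an adjustment for length, GC and G minus C its log2 fold change was -0.31 (edgeR adjusted p = 0.0160).

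**Figure D2:**
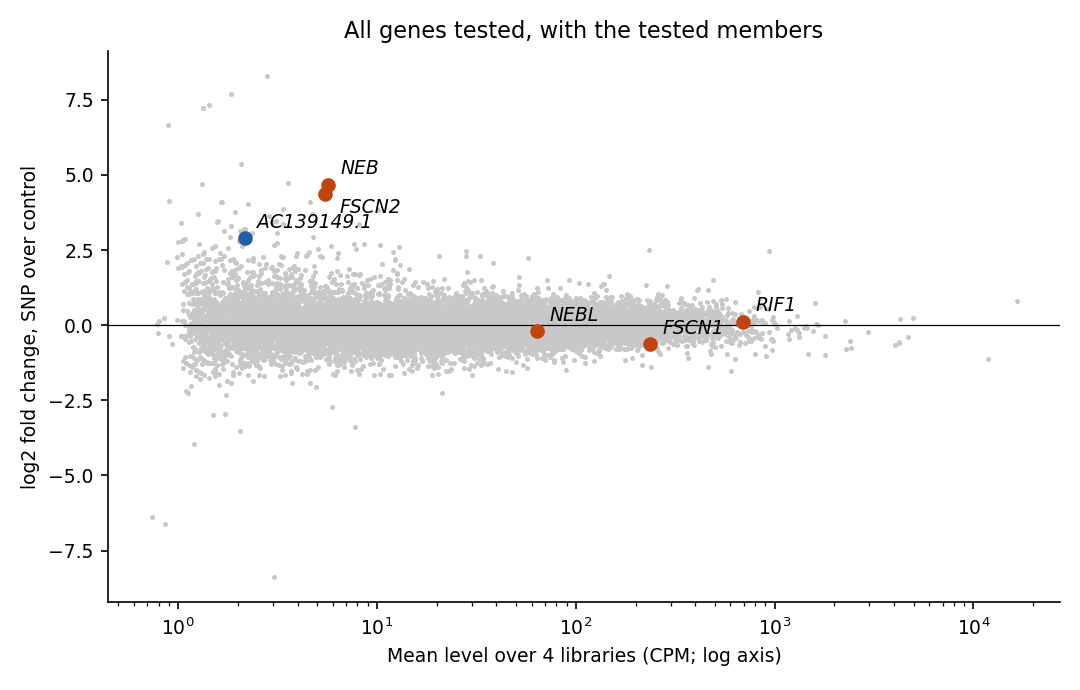
Log2 fold change (SNP over control, edgeR) against mean CPM on a log axis, 1 point for each of 14759 genes tested; the 5 tested genes of the group are in red and AC139149.1, the upstream neighbour of FSCN2, in blue. NEB (4.67) and FSCN2 (4.36) stand among the highest fold changes, and NEBL, RIF1 and FSCN1 lie between -0.63 and 0.12.

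Within the fascin family, FSCN2 was higher and FSCN1 lower in both SNP libraries. FSCN2 and NEB were selected on these counts, so a larger share of their families in SNP was set by that selection. The shares below are a description and no test. In TPM, FSCN1 was at 368, 365, 246 and 269 in control a, control b, SNP a and SNP b. FSCN2 made up 0.305% ± 0.109 (SD, n = 2) of the summed TPM of FSCN1, FSCN2 and FSCN3 in control and 9.28% ± 1.80 (SD, n = 2) in SNP. FSCN1 remained the main fascin in every library, at 88.9% to 99.4%. FSCN3 had 11, 5, 7 and 8 counts. In the nebulin family, NEB made up 0.0913% ± 0.0325 (SD, n = 2) of the summed TPM in control and 2.66% ± 0.630 (SD, n = 2) in SNP, where LASP1 and NEBL made up nearly all the rest.

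**Figure D3:**
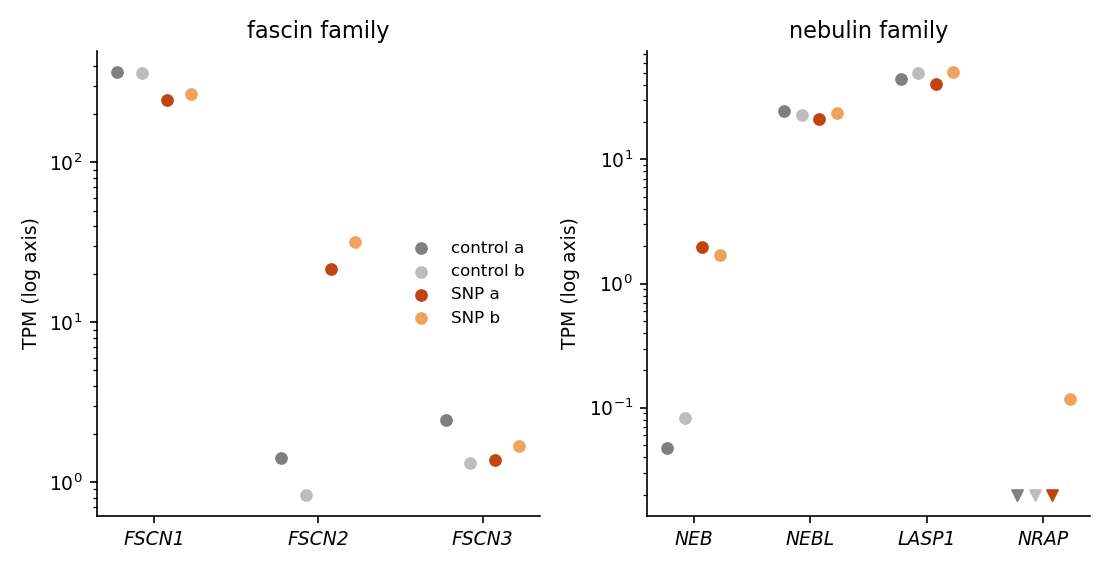
TPM of the fascin family (left) and nebulin family (right) in each library, on log axes of different range; points are single libraries, and triangles at the bottom of the axis mark libraries in which NRAP is listed at 0. FSCN2 passes from about 1 TPM in control to 21.5 and 31.9 TPM in SNP, and FSCN1 from 368 and 365 TPM to 246 and 269 TPM.

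Members of a family can share reads where their sequences agree. The longest stretches of coding sequence that are identical between relatives are printed to show how far this reaches, from GENCODE 29 reference transcripts, with the shared run in capitals and 20 bases on either side. FSCN1 and FSCN2 share at most 23 bases, coding bases 188 to 210 and 185 to 207.
FSCN1: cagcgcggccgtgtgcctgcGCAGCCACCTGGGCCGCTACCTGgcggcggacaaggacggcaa
FSCN2: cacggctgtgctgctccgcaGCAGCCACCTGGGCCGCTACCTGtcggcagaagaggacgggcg
NEB and NEBL likewise share at most 23 bases, coding bases 24385 to 24407 and 2221 to 2243.
NEB: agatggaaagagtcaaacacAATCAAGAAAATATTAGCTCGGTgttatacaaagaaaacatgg
NEBL: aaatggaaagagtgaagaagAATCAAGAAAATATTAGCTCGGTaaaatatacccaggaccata

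Both runs are much shorter than the 75 bases of a read. FSCN1 and FSCN2 are identical at 71.9% of 1446 aligned coding bases. Of the 2089 distinct 75-base windows in FSCN2 transcripts, 0 occur in transcripts of another gene. Of NEB's 29120 windows, 22 occur elsewhere, all in RIF1, but NEB repeats itself: 14.96% of the windows of its longest coding transcript occur there more than 1 time, up to 3 times. How such reads were counted is not given in the sources used here. FSCN1 shares 66 of 3682 windows with its pseudogene FSCN1P1.

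The overlap with RIF1 was looked at for reads that could belong to either gene. NEB and RIF1 lie on opposite strands, their spans overlap over 22678 bases, and their exons share 166 bases. The sources do not say whether counting used strand, and without strand a read in those bases cannot be told apart. Were RIF1's reads spread evenly over its exons, the shared bases would hold 40.4, 33.5, 54.9 and 48.7 of them in control a, control b, SNP a and SNP b. NEB's counts were 2, 3, 96 and 76, below these values in both controls and above them in both SNP libraries. Per 1000 counts of RIF1, those of NEB numbered 0.452 (control a), 0.818 (control b), 16.0 (SNP a) and 14.3 (SNP b).

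Besides RIF1, CACNB4 and TNFAIP6 near NEB had enough reads for the test, and neither passed it. CACNB4, 98280 bases beyond NEB's start on the same strand, was at -0.33 (edgeR adjusted p = 0.0608). TNFAIP6, on the other side at 105287 bases, was at 0.15 with 13, 16, 25 and 17 counts. The neighbours RN7SL124P, hsa-mir-4773-1 and AC068547.1, had 0 counts in each library.

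Near FSCN2, the neighbour just upstream on its strand was also higher in SNP. AC139149.1, an antisense RNA gene that ends 619 bases before FSCN2 (ENSG00000229848, chromosome 17 at 81514047 to 81527776), had 1, 5, 26 and 34 counts in control a, control b, SNP a and SNP b. The ratio of its summed counts was 7.74 (3.35 to 21.9, counting error only) and its log2 fold change 2.90. It passed the filter through the SNP libraries alone, so it could be called only as higher. Its values are therefore given as a description and no test. The log2 fold change was 2.09 without control a and 4.49 without control b. Its span overlaps that of ACTG1 by 9801 bases, with 0 exon bases in common. The nearest gene on either side on the opposite strand fell. ACTG1, cytoplasmic gamma actin, 4548 bases away, had 6670, 6774, 5126 and 5542 counts and a log2 fold change of -0.71 (edgeR adjusted p = 1.4e-05). FAAP100, of the Fanconi anaemia core complex, 2754 bases beyond FSCN2, had 628, 654, 390 and 558 counts and was at -0.81 (edgeR adjusted p = 3.4e-04). NPLOC4, 19756 bases away, was not called (0.15, edgeR adjusted p = 0.272).

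**Figure D4:**
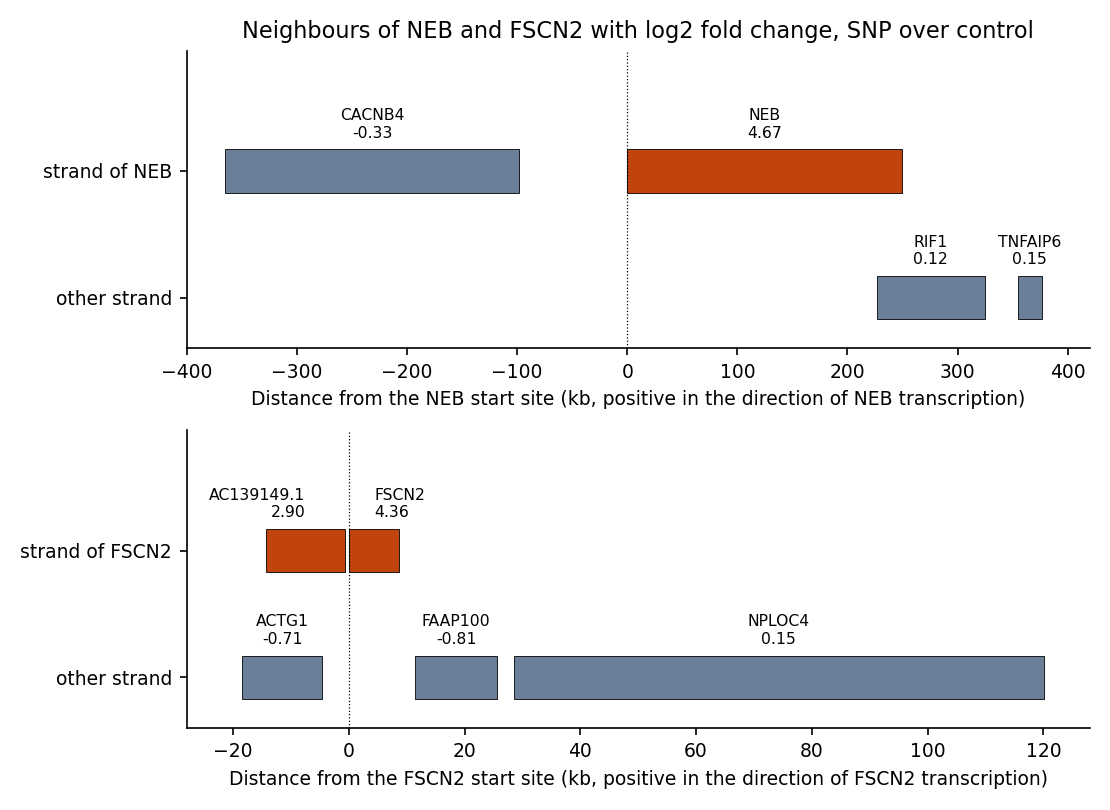
Tested genes described here around NEB (top) and FSCN2 (bottom) by distance from the gene's start in kb and by strand, to scale; the number over each gene is its log2 fold change, SNP over control, and red marks values above 2. None of the 3 genes drawn beside NEB is red, and near FSCN2 the upstream gene on the same strand is (2.90).

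The genes whose profile over the 4 libraries lay nearest to NEB and FSCN2 were found by the root mean square difference of log2(CPM + 0.5), centred per gene, among 14758 other tested genes. For NEB these were DNAH17 (0.215; 1, 2, 53 and 56 counts), GRIN2C (0.308; 9, 7, 131 and 167 counts), FUT6 (0.323; 0, 0, 34 and 24 counts), COL20A1 (0.345; 0, 1, 33 and 31 counts) and KCNMB2-AS1 (0.367; 4, 2, 65 and 72 counts). For FSCN2 they were GRIN2C (0.105), KCNMB2-AS1 (0.157), ZRSR1 (0.178; 0, 0, 32 and 56 counts), AMZ1 (0.304; 4, 4, 59 and 78 counts) and DNAH17 (0.312). DNAH17 encodes an axonemal dynein chain, GRIN2C an NMDA receptor subunit and FUT6 a fucosyltransferase. With 4 libraries and a contrast this large, likeness mostly restates that a gene is low in both controls and high in both SNP libraries.

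Other genes of the sarcomere were examined because NEB and TTN belong there. On the list of thin filament and Z disc genes, 17 of 38 could be tested, and 6 of them rose and 0 fell. Without 2 genes, TNNI1 and TNNT2, that passed the filter through the SNP libraries alone, 4 of 15 rose, 26.7% called, where 26.2% of all genes were called and 13.6% rose; their median log2 fold change was 0.19, against -0.0042 over all genes. TNNI1, slow skeletal troponin I, had 3, 0, 17 and 13 counts (log2 fold change 2.87). TNNT2, cardiac troponin T, had 3, 2, 23 and 19 counts (2.65). Because of how they passed the filter, TNNI1 and TNNT2 could be called only as higher, and their values are a description and no test. The tropomyosins TPM2 (1.06, edgeR adjusted p = 0.0090) and TPM3 (0.57, edgeR adjusted p = 2.6e-04) rose as well. TPM1 and the capping protein gene CAPZA2 were the others, and like TPM3 they are also expressed outside muscle. The count of 6 dropped to 3 without control b, 1 without SNP a and 2 by DESeq2. TNNI1 lost its call without control b, SNP a or SNP b, and TNNT2 and TPM2 lost theirs without SNP a. TPM2 also lost its call with the adjustment for G minus C (edgeR adjusted p 0.0517).

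Of 20 skeletal muscle markers, 12 had 0 counts in each library, among them MYOD1, MYOG, MYF5, MYF6, CKM, DES and MB, and 3 could be tested. RYR1, the calcium release channel of muscle, had 9, 12, 76 and 60 counts (2.31, edgeR adjusted p = 1.1e-04). MYH3, embryonic myosin heavy chain, had 61, 43, 146 and 154 counts (1.16, edgeR adjusted p = 4.4e-04). ATP2A1, the other gene tested, was not called (0.62, edgeR adjusted p = 0.182). Thus 2 of 3 were called, where 26.2% of all genes were. The summed level of the 20 markers was 18.3 and 13.8 CPM in control and 36.3 and 38.5 CPM in SNP. Most of it was MYH3 (means of 8.50 CPM in control and 19.1 in SNP), ATP2A1 (4.82 and 7.53) and RYR1 (1.75 and 8.65). Of the 20, 16 had at most 5 counts in each library. The part of these markers in the level of NEB was not tested.

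Photoreceptors and hair cells are the cells in which FSCN2 is best known. Of 22 photoreceptor markers, 7 had 0 counts in each library; CRX had 6, 2, 5 and 6 counts. Of the 4 that could be tested, 0 passed with edgeR, also at an unadjusted p under 0.05. By DESeq2 and by limma-voom, 0 passed at an adjusted p under 0.05. The most abundant, PDE6B, had 33, 23, 18 and 31 counts, and the summed level of the markers was 12.0 and 11.2 CPM in control and 10.2 and 15.5 CPM in SNP, overlapping ranges. Of 20 hair cell and stereocilium genes, 10 could be tested, and 4 rose and 0 fell, 40.0% called, where 26.2% of all genes were called and 13.6% rose. MYO15A, the myosin of stereocilium tips, had 7, 9, 59 and 44 counts (log2 fold change 2.30, edgeR adjusted p = 3.8e-04), and CDH23, a tip link cadherin, 20, 42, 99 and 91 (1.23, edgeR adjusted p = 0.0056). STRC (1.15, edgeR adjusted p = 0.0300) and MYO6 (0.43, edgeR adjusted p = 0.0090) were the other two. The count of 4 dropped to 1 without control a and 2 without control b, and the hair cell factors ATOH1 and POU4F3 had 0 counts in each library. CDH23 lost its call without control a (edgeR adjusted p 0.134), MYO6 without control a or b (highest 0.497, with the adjustment for G minus C), and STRC without control a, control b or SNP b (highest 0.254) and by DESeq2 (0.142).

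FSCN1 works beside other genes of actin bundles and filopodia. Of 22 such genes, 21 could be tested; 6 fell, 2 rose, 38.1% were called, against 26.2% of all genes, and the median log2 fold change was -0.14. ACTB, cytoplasmic beta actin, fell by 0.95 on the log2 scale (edgeR adjusted p = 7.6e-08), and LIMK1, the kinase that inactivates cofilin, by 0.60 (edgeR adjusted p = 0.0013). ACTG1, CFL1 (cofilin), RAC1 and ACTN4 were the others that fell. With the adjustment for length, GC and G minus C, the log2 fold change was smaller, -0.53 for ACTB and -0.42 for ACTG1, and both kept their call. SWAP70 rose by 0.51 (edgeR adjusted p = 0.0096), a call lost with the adjustment for G minus C and without control a, and FMNL2 was the other. Without control a, 0 of the list rose. ACTB lies 29038 bases from FSCN1, and RNF216, the neighbour on the other side at 13391 bases, was not called (-0.059, edgeR adjusted p = 0.698).

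Genes of RIF1's pathway, in which 53BP1, RIF1 and the shieldin complex protect broken DNA ends from resection, moved both ways. All 19 could be tested; 3 rose and 4 fell, 36.8% called against 26.2% of all genes, with a median of -0.024. RNF168, the ubiquitin ligase that marks chromatin for 53BP1, rose by 0.55 on the log2 scale (edgeR adjusted p = 5.7e-04), with RNF8 and FAM35A, the shieldin subunit also called SHLD2. MAD2L2, another shieldin subunit, fell by 0.81 (edgeR adjusted p = 0.0067), PPP1CA, the phosphatase subunit that RIF1 binds, by 0.65 (edgeR adjusted p = 0.0017) and DYNLL1, a dynein light chain that binds 53BP1, by 0.65 (edgeR adjusted p = 0.0201), with the helicase BLM. MAD2L2, PPP1CA and DYNLL1 lost their call without control b (edgeR adjusted p 0.139 for MAD2L2 and 0.0508 for PPP1CA; highest for DYNLL1 0.1997), DYNLL1 also without SNP b and by DESeq2 (0.0684), and RNF168 lost it with the adjustment for G minus C (0.117). The list had 1 gene lower without control b, and 1 higher without control a or without control b.

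**Figure D5:**
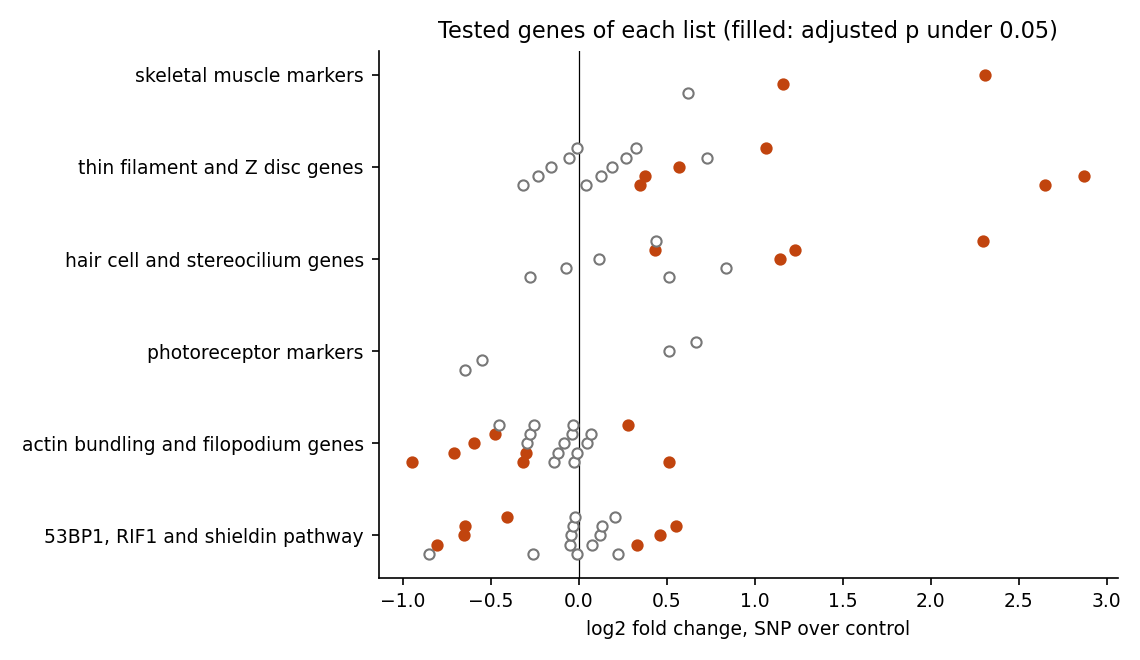
Log2 fold change (SNP over control) of every tested gene of 6 lists, without the 6 genes described above; each circle is a gene, filled where the edgeR adjusted p was under 0.05, and vertical offsets within a row only separate the circles. The called muscle and hair cell genes all lie to the right of 0, and those of the actin and RIF1 lists lie on both sides. TNNI1 and TNNT2, of the thin filament list, passed the filter through the SNP libraries alone and could be called only to the right.

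The 4 libraries held 5613144 to 8056550 counts, and 19313 to 20789 genes with a count above 0. A count of 3, the limit that 0 counts allow, is 0.372 to 0.534 CPM, and the control levels of NEB, FSCN2 and TTN lie at about that limit. The libraries of a group differed by more than counting error (chi-square per degree of freedom 2.95 for control and 5.04 for SNP). For a single gene, an exact permutation test of 2 libraries against 2 cannot give a two-sided p below 0.333.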

How the data were processed

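The 4 libraries were grouped by their titles, which give treatment and replicate letter. For each, the authors deposited a table of whole-number read counts per gene, not normalized, with TPM and RPKM columns; per the labels, reads were 75 bp and RNA was extracted with TRIzol. The deposited TPM values were used for levels per transcript length and the deposited RPKM values only to check gene lengths, which matched GENCODE 29 within 1% for about 90.0% of genes. The build, GRCh38, comes from the submitters' processing notes; the aligner, counter and annotation are not given in the sources used here.

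Counts of 4 libraries were fitted together with edgeR 4.0.16 in R 4.3.3 (filterByExpr with a minimum count of 10 and total of 15, TMM, quasi-likelihood test, Benjamini-Hochberg adjusted p under 0.05 over all tested genes). Alternatives used other scaling and filters, a replicate block, offsets fitted on length, GC and G minus C, DESeq2 1.42.0, limma 3.58.1 (voom), another prior count and each library left out.

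Genes named are the 6, their nearest and overlapping neighbours, the 5 tested genes of nearest profile for NEB and FSCN2, and up to 4 called genes of largest change in each list, or the most abundant where none was called; further names are of single genes that complete a count or of defining markers. Some genes that the rule names are not reported here. The members and lists were chosen with earlier results of these data known.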

Additional observations from a re-analysis of the deposited data

How the results depend on the processing

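The call and direction of FSCN1 held under each alternative. NEB, FSCN2 and TTN kept their direction, which for NEB and FSCN2 was set by their selection. The number of genes called, 3861, became 2415 by the Wald test of DESeq2, 2765 with offsets on length, GC and G minus C, and 2447 to 4144 with 1 library left out. With a prior count of 2, the log2 fold change was 4.005 for NEB and 3.78 for FSCN2. With 1 library left out it ranged from 4.32 to 5.08 for NEB, from 4.05 to 4.81 for FSCN2 and, as a ratio of summed counts, from 1.82 to 2.78 for TTN (2.38 with all libraries). TTN was between 2.32 and 2.39 with other scaling or no filter, and no ratio was computed for it under the remaining settings. NEBL passed the threshold at -0.34 with offsets on length and GC, at -0.34 with these and the replicate block, and at -0.44 with G minus C added (edgeR adjusted p 0.0231, 0.0264 and 0.0090). RIF1 turned to -0.032, -0.032 and -0.13 under the same settings, with no call. GATA3, a sympathetic neuron marker, turned from -0.45 to 0.14 with offsets on length, GC and G minus C. The cause was not tested. The labels do not say that a replicate letter marks a shared experiment, and the differences between a and b correlated at 0.0502 between the groups; with the replicate block, 4487 genes were called and no call among the 6 genes changed. Of 33 genes that the naming rule gave beside these, 20 kept their call under every alternative run and 32 their direction. Depth limits the control levels of NEB, FSCN2 and TTN, which rest on 2 to 4 counts a library. A lone library of a group was assumed to vary like the other group.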

Other observations

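Markers of the cell line itself were read beside the 6 genes. Of 12 neuroblastoma and neuron markers, 11 could be tested; 5 fell and 2 rose (over all genes tested, 12.6% fell and 13.6% rose), with a median log2 fold change of -0.23. DBH, dopamine beta-hydroxylase, fell by 1.38 on the log2 scale, and PHOX2A, a factor of noradrenergic neurons, by 0.94; ELAVL4 fell by 0.41, and GATA3 by 0.45, which turned to 0.14 higher with offsets on length, GC and G minus C and lost its call without control a (highest edgeR adjusted p 0.188). The 4 names have edgeR adjusted p of 4.8e-08 (DBH), 9.7e-06 (PHOX2A), 0.0020 (ELAVL4) and 0.0015 (GATA3). Across the alternatives, the log2 fold change of PHOX2A came as near to 0 as -0.38, with its call kept. TH, tyrosine hydroxylase, had 0 counts in each library. Their part in the values of NEB and FSCN2 was not tested.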
